A study of Mus musculus with 12 samples.

Results

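The 46 genes described here encode the machinery of S phase, the part of the cell cycle in which DNA is copied: the helicase, polymerases, sliding clamp and nucleotide supply, and the regulators that start and guard replication. They were chosen by symbol from a named list, and all 46 were found among the 56691 genes measured. RNA was sequenced from palatal shelves of mouse embryos at gestational day 12, the outgrowths of the upper jaw that later meet to form the roof of the mouth. There were 12 libraries, 3 in each of 4 groups. Embryos of the knockout group carried a conditional knockout of Dnmt1 with no treatment named, and those of the AzadC group were wild type and were given 5-aza-2'-deoxycytidine, a cytosine analogue. The vehicle group was wild type and received the vehicle of that drug, and the control group was wild type and untreated. Each library pooled the shelves of 2 embryos that shared a genotype, so 6 embryos stood behind a group, as the protocols in the labels state, although the series' own design note mentions 3 pooled animals. Neither the driver of Cre nor the exons removed, and neither the dosing of AzadC nor its timing, is given in the sources used here. The labels also do not say whether control embryos carried Cre or a Dnmt1 allele made for conditional removal.

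DNA replication begins when the origin recognition complex, with Cdc6 and Cdt1, loads the MCM helicase onto DNA in G1. Cyclin E and E2F factors then drive the cell into S phase, Cdc45 and the GINS complex switch the helicase on, and polymerases copy both strands behind it. Many of these genes are known targets of E2F, which binds their promoters and makes their transcripts rise together as cells leave G1. The pathway bears on this study because Dnmt1 copies methylation onto new DNA at the replication fork, and because AzadC enters DNA during replication and traps that enzyme. Before the palatal shelves lift and fuse, their neural crest mesenchyme divides actively.

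The promoters of 6 of the genes are printed because they hold the letters that E2F factors are known to read in different places, or not at all. Windows of 250 bases before and 50 after the gene start were taken from RefSeq (GRCm38.p6, with RefSeq's gene starts) and existed for 36 of the 46 genes. E2F letters were searched as TTTCGCGC, TTTGGCGC, TTTCCCGC and TTTGCCGC on both strands, and the CCAAT box as CCAAT on both strands. The printed stretches are the 170 bases up to the start, read along each gene's own strand, with both motifs in capitals, including overlapping matches. They lie at chr8:75109339-75109508 on the plus strand for Mcm5, chr1:128359706-128359875 on the minus strand for Mcm6, chrX:93632156-93632325 on the minus strand for Pola1, chr1:191575545-191575714 on the minus strand for Dtl, chr1:20820313-20820482 on the minus strand for Mcm3 and chr2:5012792-5012961 on the minus strand for Mcm10.
Mcm5: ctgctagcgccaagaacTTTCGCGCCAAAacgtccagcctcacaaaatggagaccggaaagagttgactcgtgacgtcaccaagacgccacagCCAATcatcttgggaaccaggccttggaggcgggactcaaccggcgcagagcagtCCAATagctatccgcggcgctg
Mcm6: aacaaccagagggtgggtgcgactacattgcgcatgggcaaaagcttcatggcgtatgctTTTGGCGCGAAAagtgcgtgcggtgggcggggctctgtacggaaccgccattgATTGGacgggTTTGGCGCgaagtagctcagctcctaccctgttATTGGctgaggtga
Pola1: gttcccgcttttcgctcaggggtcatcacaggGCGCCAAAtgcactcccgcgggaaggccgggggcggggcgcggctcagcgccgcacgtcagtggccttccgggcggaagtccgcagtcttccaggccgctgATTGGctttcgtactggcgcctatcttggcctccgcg
Dtl: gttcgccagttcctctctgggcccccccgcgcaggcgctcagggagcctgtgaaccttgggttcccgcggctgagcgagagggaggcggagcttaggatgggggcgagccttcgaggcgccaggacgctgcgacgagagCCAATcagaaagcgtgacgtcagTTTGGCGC
Mcm3: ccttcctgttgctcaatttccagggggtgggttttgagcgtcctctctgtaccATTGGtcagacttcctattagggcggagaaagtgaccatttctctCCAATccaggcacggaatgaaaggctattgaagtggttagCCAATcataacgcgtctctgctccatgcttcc
Mcm10: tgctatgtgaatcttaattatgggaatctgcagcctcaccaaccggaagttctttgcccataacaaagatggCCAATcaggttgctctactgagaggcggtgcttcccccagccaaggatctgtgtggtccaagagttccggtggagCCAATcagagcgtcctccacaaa

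Counted from the start, with -1 as the last base before it, Mcm5 held overlapping E2F matches at -153 and -149. Mcm6 held 3 matches, at -110, -106 and -47, of which the first 2 overlap. Pola1 had its match at -138 and Dtl at -8, so that in Dtl it ended at the start itself. In Mcm3 the E2F letters stood only after the start, at 20 and 39, outside the stretch shown, and its capitals are CCAAT boxes. Mcm10 had no E2F letters in its window, only CCAAT boxes.

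E2F letters were found in the windows of 17 of the 36 genes (47.2%), against 4.41% of the 12162 tested genes with a window and 2.6% of all 27025 genes with one. The CCAAT box was found in 22 of 36 (61.1%), against 42.6% of tested genes with a window. Median GC content was 60.0% over the windows of the 36 genes and 60.3% over those of tested genes. These shares describe letters in a window and do not show that a factor bound there.

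Levels between genes were compared as TPM, a transcript level adjusted for gene length, from the authors' files, and covered a wide range. Pcna, the sliding clamp that holds polymerases on DNA, was highest with a mean of 281 TPM over the 12 libraries (range 249 to 326). Mcm7 followed at 246 TPM, Tyms, the enzyme that makes thymidylate, at 221 TPM and Tipin, a fork protection factor, at 202 TPM. At the low end stood E2f2 at 6.40 TPM (range 4.39 to 8.95), Orc1 at 11.7 TPM and Dscc1, a subunit of an alternative clamp loader, at 13.8 TPM.

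Subunits of one complex did not share one level. The MCM subunits ran from 106 TPM for Mcm2 to 246 TPM for Mcm7, and Orc6 stood at 110 TPM while Orc1 stood at 11.7 TPM. Within the polymerase alpha complex, which lays down the first stretch of each new strand, the catalytic subunit Pola1 was at 18.1 TPM, Pola2 at 74.6 TPM and the primase subunits Prim1 and Prim2 at 85.3 TPM and 35.1 TPM. The ribonucleotide reductase subunits Rrm1 and Rrm2 were close, at 149 TPM and 147 TPM.

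Library totals ran from 12640536 to 33113790 expected counts, and each of the 46 genes passed the filter on low counts with at least 149 counts in any library. CPM are counts scaled to a common library total. Dnmt1, the targeted gene, was read at 201, 179.6 and 191 CPM across the knockout libraries, 408, 482 and 411 CPM across AzadC and 452, 451 and 448 CPM across vehicle, against 286, 278 and 258 CPM across control. It was lowest in the knockout libraries, and the control libraries lay below the vehicle libraries although both are labelled wild type, by a log2 change of vehicle against control of 0.72 (SE 0.07, edgeR adjusted p = 0.000286). All 9 markers of palatal and facial mesenchyme, the labelled tissue, were detected in every library. Changes are edgeR quasi-likelihood fits over all 17335 tested genes, called at a Benjamini-Hochberg adjusted p below 0.05. The p-values cover the spread between pooled libraries, not between single embryos. In bulk tissue a lower share of cycling cells and less RNA per cycling cell cannot be told apart.

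The 3 control libraries stood low for these genes in comparison with all other libraries. As a summary, the log2 CPM of each gene was centred on its mean over the 12 libraries and averaged over the 46 genes. This score was 0.045, 0.087 and 0.039 in the knockout libraries, 0.002, 0.158 and -0.066 in the AzadC libraries, 0.13, -0.010 and 0.041 in the vehicle libraries, and -0.086, -0.204 and -0.136 in the control libraries. No control library reached the level of any of the 9 others, and control 2 was lowest. Among those 9, AzadC 2 was highest and AzadC 3 lowest, so the widest spread within a group was in AzadC. The control libraries held 17289192 to 33113790 counts, control 1 being the deepest of the series.

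**Figure D1:**
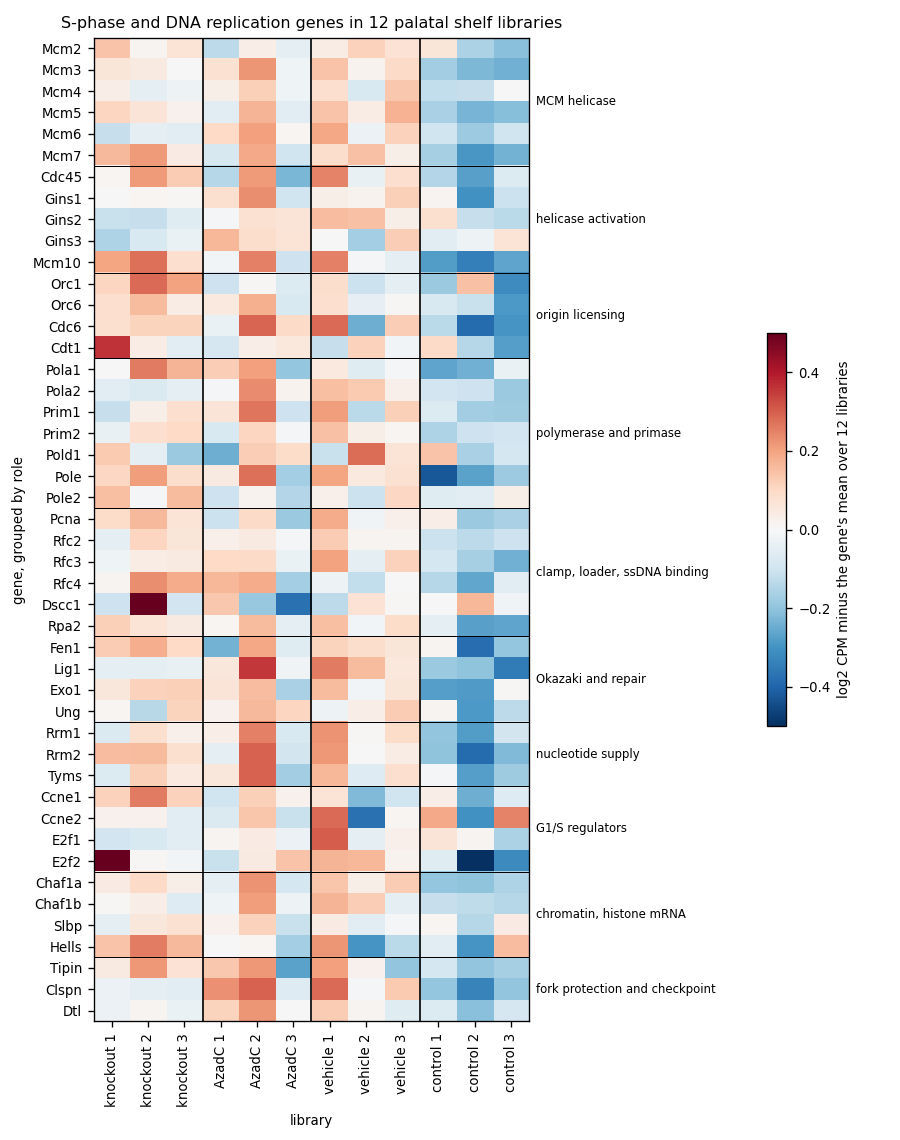
Each tile is the log2 CPM of a gene in a library minus that gene's mean over 12 libraries, with genes ordered by role (rows) and libraries by group (columns); colours saturate at 0.5 in either direction. The control columns are blue for most genes, control 2 being the lowest library for 23 of the 46 genes, and AzadC 2 is the highest library for 20.

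For 17 of the 46 genes (37%) every control library lay below all 9 others, while 2.82% of all tested genes had that order. These 17 were Mcm3, Mcm5, Mcm7, Mcm10, Pola2, Prim2, Pole, Rfc2, Rfc3, Rpa2, Lig1, Rrm1, Rrm2, Chaf1a, Chaf1b, Clspn and Dtl, and no gene had the opposite order. The control mean was the lowest of the 4 group means for 39 of 46 genes (84.8%), against 26% of all tested genes. In the authors' TPM values it was lowest for 34 of 46 (73.9%), against 19.7% of tested genes. The lowest single value fell in control 2 for 23 genes, in control 3 for 12 and in control 1 for 4. The highest fell in AzadC 2 for 20 genes and in knockout 2 and vehicle 1 for 9 each.

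The median spread between replicates was lower for these genes than over all tested genes, least so in AzadC (9.42% against 10.6%). Genes of matched level were not compared. The median coefficient of variation over the 46 genes was 4.24% in the knockout libraries, 9.42% in AzadC, 7.14% in vehicle and 7.03% in control, where all tested genes had 10.3% to 11.7%. Among the knockout libraries Gins1 varied least (0.176%) and Dscc1 most (26.7%), through a high value in knockout 2.

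**Figure D2:**
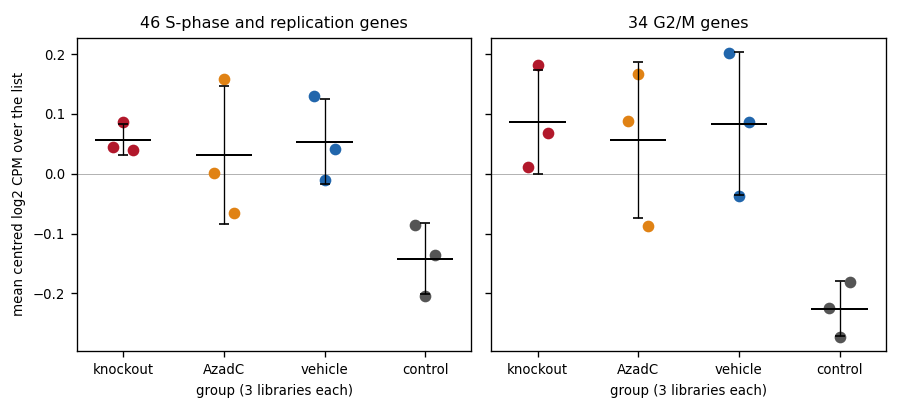
Points are libraries; the y axis is the mean centred log2 CPM over the 46 S-phase genes (left) and over 34 G2/M genes (right), with group mean and SD as lines. Control libraries lie below every other library in both panels, from -0.204 to -0.086 on the left and from -0.273 to -0.181 on the right.

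Knockout against control compared shelves of the Dnmt1 knockout with those of untreated wild-type embryos. S-phase genes were slightly higher in the knockout libraries: 42 of 46 had a positive log2 change, with a median of 0.20 (1.15-fold) where the median of all tested genes was -0.003. At the threshold 8 genes were higher (17.4%) and 0 lower, against 7.83% of all tested genes higher and 6.43% lower. Before adjustment (p below 0.05) 26 were higher and 0 lower, beside 2536 higher and 2314 lower of the 17335 tested genes. For 28 genes (60.9%) all knockout libraries lay above all control libraries, which was so for 16.9% of tested genes. The 8 genes were Mcm10, Mcm7, Pole, Rrm2, Mcm5, Mcm3, Rpa2 and Chaf1a, and they are described by role with their values in every group. Mcm10 and Mcm7 passed also with any 1 library of the 2 groups left out, and the other 6 each lost the call in at least 1 such fit. Without knockout 2 the count was 2, and without control 2 it was 4. Over all tested genes 808 and 875 were higher in these 2 fits, against 1358 with every library.

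Of the MCM helicase subunits, which together form the ring that unwinds DNA, 3 of 6 rose in the knockout. Mcm7 (ENSMUSG00000029730, chr5:138164583-138172422, minus strand, mm10) was read at 348, 360.1 and 319 CPM across the knockout libraries, 294, 354 and 290.3 CPM across AzadC and 330.4, 344 and 317 CPM across vehicle, against 277, 254 and 264 CPM across control. RSEM shared part of its reads with other genes. Every control library lay below the other 9, while AzadC 1 and AzadC 3 lay below the knockout and vehicle libraries. Its log2 change was 0.37 (SE 0.08, edgeR adjusted p = 0.00718) for knockout against control and 0.32 (SE 0.08, edgeR adjusted p = 0.0423) for vehicle against control. Mcm5 (ENSMUSG00000005410, chr8:75109569-75128439, plus strand), whose promoter is printed above, had 307, 298 and 289 CPM across the knockout libraries, 274, 321 and 275 CPM across AzadC and 315, 293 and 322 CPM across vehicle, against 255, 243 and 246 CPM across control. The vehicle libraries reached as high as the knockout libraries, and all control libraries lay below them. The change was 0.27 (SE 0.07, edgeR adjusted p = 0.0186) in knockout against control and 0.32 (SE 0.07, edgeR adjusted p = 0.0229) in vehicle against control.

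Mcm3 (ENSMUSG00000041859, chr1:20802968-20820312, minus strand) had 253, 251 and 243 CPM across the knockout libraries, 256, 283 and 239 CPM across AzadC and 268, 246 and 259 CPM across vehicle, against 215, 208 and 205 CPM across control. Its control libraries lay close together and below all others. Knockout against control gave 0.25 (SE 0.06, edgeR adjusted p = 0.0197) and vehicle against control 0.30 (SE 0.06, edgeR adjusted p = 0.0242). The other 3 subunits did not pass in either comparison: the knockout changes were 0.17 for Mcm2, 0.07 for Mcm4 and 0.06 for Mcm6 (edgeR adjusted p = 0.141, 0.573 and 0.654). Mcm6, with 3 E2F matches in its promoter, was at 294, 309 and 307 CPM across the knockout libraries, 342, 367 and 321 CPM across AzadC and 364, 313 and 345 CPM across vehicle, against 298, 281 and 298 CPM across control. Its knockout libraries overlapped the control libraries, and its vehicle libraries lay above both.

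Among the factors that switch the helicase on, Mcm10 had the smallest adjusted p of the 46 genes in this comparison. Mcm10 helps the loaded helicase to start and tethers polymerase alpha (ENSMUSG00000026669, chr2:4989714-5012791, minus strand). It was read at 69.9, 73.7 and 64.6 CPM across the knockout libraries, 60.3, 72.6 and 56.7 CPM across AzadC and 72.6, 60.6 and 58.9 CPM across vehicle, against 50.1, 48 and 50.8 CPM across control. The control libraries lay close together and below all others. The log2 change was 0.48 (SE 0.10, edgeR adjusted p = 0.00621), a 1.40-fold difference, for knockout against control, and 0.36 (adjusted p = 0.0627) by edgeR for vehicle against control. Cdc45 and the GINS subunits did not pass: knockout changes were 0.28 for Cdc45, 0.13 for Gins1, -0.04 for Gins2 and -0.08 for Gins3 (edgeR adjusted p 0.128 to 0.725).

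None of the 4 origin licensing genes passed. All 4 had positive knockout changes, 0.30 for Orc1, 0.25 for Orc6, 0.37 for Cdc6 and 0.23 for Cdt1, with edgeR adjusted p from 0.0509 to 0.244. Orc6 was just outside the threshold, as Chaf1a was just inside it. Cdt1, which is destroyed when S phase begins, stood apart in knockout 1 at 47 CPM, with 37.6 and 35.3 CPM in the other two knockout libraries.

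Of the 7 polymerase and primase genes 1, Pole, rose. Pole encodes the catalytic subunit of polymerase epsilon, which copies the leading strand (ENSMUSG00000007080, chr5:110286306-110337474, plus strand). It had 140.5, 151 and 139 CPM across the knockout libraries, 135, 158 and 116 CPM across AzadC and 149.7, 135 and 138 CPM across vehicle, against 97.4, 109 and 115 CPM across control. All knockout and vehicle libraries lay above all control libraries, while AzadC 3 came close to control 3. The change was 0.42 (SE 0.10, edgeR adjusted p = 0.0117) in knockout against control and 0.40 (SE 0.10, edgeR adjusted p = 0.0433) in vehicle against control. The remaining 6 genes (Pola1, Pola2, Prim1, Prim2, Pold1 and Pole2) had knockout changes from 0.01 to 0.32. Pold1, the catalytic subunit of the lagging-strand polymerase delta, had the smallest of these.

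In the clamp, clamp loader and single-strand binding group, Rpa2 passed of 6 genes. Rpa2 is a subunit of the protein that coats exposed single-stranded DNA (ENSMUSG00000028884, chr4:132768332-132778752, plus strand). Its levels were 84.6, 81.5 and 80.2 CPM across the knockout libraries, 78.3, 86.9 and 75.4 CPM across AzadC and 86.4, 77.1 and 82.8 CPM across vehicle, against 75.4, 64.4 and 64.9 CPM across control. Control 1 lay close to AzadC 3 and vehicle 2, while control 2 and control 3 lay lower. The knockout change was 0.27 (SE 0.08, edgeR adjusted p = 0.0368) and the vehicle change against control 0.27 (adjusted p = 0.0774) by edgeR. Pcna, Rfc2, Rfc3, Rfc4 and Dscc1 had knockout changes from 0.09 to 0.30, none past the threshold.

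The 4 genes that finish Okazaki fragments or repair new DNA had positive knockout changes, from 0.12 for Ung to 0.32 for Fen1, with edgeR adjusted p from 0.0668 to 0.469. Lig1, the ligase that seals the fragments (ENSMUSG00000056394, chr7:13277283-13311433, plus strand), passed in vehicle and in AzadC against control. It was at 193, 193 and 194 CPM across the knockout libraries, 207, 254 and 197 CPM across AzadC and 239, 222 and 206 CPM across vehicle, against 175, 173 and 156 CPM across control. The knockout libraries lay close together, between control and the lowest AzadC library. Vehicle against control gave 0.40 (SE 0.09, edgeR adjusted p = 0.0274) and knockout against control 0.20 (SE 0.09, edgeR adjusted p = 0.159). Knockout against vehicle, which compares those groups directly, gave -0.20 (SE 0.09, edgeR adjusted p = 0.174).

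Among the nucleotide supply genes Rrm2 rose. Rrm2 is the small subunit of ribonucleotide reductase, the enzyme that makes deoxynucleotides (ENSMUSG00000020649, chr12:24708241-24714146, plus strand). It was at 191, 192 and 182 CPM across the knockout libraries, 166, 211 and 161 CPM across AzadC and 199, 172 and 176 CPM across vehicle, against 149, 131 and 147 CPM across control. The controls lay below all other libraries, with control 2 lowest. Its change was 0.40 (SE 0.10, edgeR adjusted p = 0.0145) in knockout against control and 0.35 (adjusted p = 0.0609) by edgeR in vehicle against control. Rrm1, the large subunit, had 0.20 and 0.30 in the same comparisons, and Tyms 0.19 and 0.21, none past the threshold.

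None of the 4 G1/S regulators passed in the knockout. E2f2, the least abundant of the 46 genes, had the highest knockout change, 0.49 (SE 0.16, edgeR adjusted p = 0.0547), with 26.1, 18.3 and 18 CPM in the knockout libraries against 17.4, 12.3 and 14.6 CPM in the control libraries. Knockout 1 was the high value and control 2 the low one. E2f1 and Ccne2 had changes of -0.05 and -0.07, and Ccne1 one of 0.25 (edgeR adjusted p = 0.0986).

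Chaf1a, the large subunit of the factor that places histones on new DNA (ENSMUSG00000002835, chr17:56040439-56072289, plus strand), was at 157, 162 and 155 CPM across the knockout libraries, 148, 178 and 143 CPM across AzadC and 168, 155 and 166 CPM across vehicle, against 133, 132 and 137 CPM across control. The control values lay close together and below every other library, with part of the reads again shared with other genes. The knockout change was 0.24 (SE 0.07, edgeR adjusted p = 0.0471) and the vehicle change 0.28 (adjusted p = 0.0532) by edgeR. Its partner Chaf1b, the histone mRNA binding protein Slbp and the chromatin remodeller Hells, which is needed for normal DNA methylation, had knockout changes of 0.12, 0.06 and 0.24 without passing. In the fork protection group none of Tipin, Clspn and Dtl passed in the knockout (0.26, 0.20 and 0.10).

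Clspn, which passes the alarm from stalled forks to Chek1 (ENSMUSG00000042489, chr4:126556935-126593903, plus strand), was higher in vehicle than in control. Its levels were 75.6, 74.4 and 74.2 CPM across the knockout libraries, 90.2, 94.4 and 73.6 CPM across AzadC and 93.7, 76.5 and 84.2 CPM across vehicle, against 67.3, 61.1 and 67.1 CPM across control. The knockout libraries lay between control and most AzadC and vehicle libraries. Vehicle against control gave 0.38 (SE 0.09, edgeR adjusted p = 0.0436) and knockout against control 0.20 (SE 0.09, edgeR adjusted p = 0.191).

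**Figure D3:**
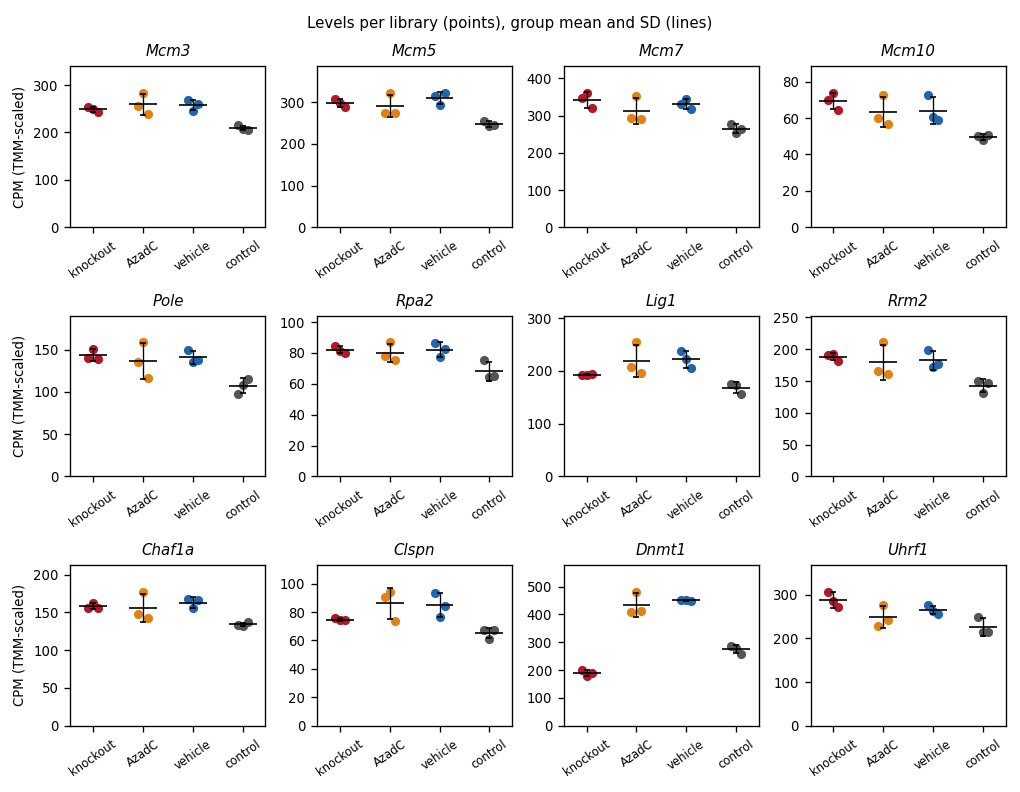
CPM per library (points) with group mean and SD (lines) for the 10 genes called in knockout or vehicle against control, and for Dnmt1 and Uhrf1. For each of the 10 genes the control libraries are the lowest, whereas Dnmt1 is lowest in the knockout libraries, at 179.6 to 201 CPM.

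Vehicle against control compared 2 groups of embryos labelled wild type, and there too the S-phase genes were slightly higher than in control. Of 46 genes, 42 had a positive change, with a median of 0.18 (1.13-fold), against -0.003 over all tested genes. Past the threshold 6 were higher (Mcm5, Mcm3, Lig1, Mcm7, Pole and Clspn) and 0 lower, that is 13.0% higher, against 1.46% of all tested genes higher and 2.06% lower. Before adjustment 25 were higher and 0 lower, beside 1544 higher and 1776 lower of the 17335 tested genes. The count past the threshold was 0 without any one of vehicle 1, vehicle 3, control 2 and control 3. Over all tested genes the number higher also fell in these fits, from 253 to 46, 52, 97 and 123. In the same fits 40, 42, 40 and 44 of the 46 changes stayed positive. For 23 genes (50%) the libraries of both groups were apart, higher in vehicle, which was so for 11.2% of tested genes. This comparison and knockout against control share the 3 control libraries, so their values are not independent of each other.

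Knockout against vehicle set the knockout shelves against the vehicle-treated wild type, and here no S-phase gene passed. The median change over the 46 genes was 0.00, with 24 positive and 22 negative, against -0.003 over all tested genes. The test called 0 higher and 0 lower by edgeR, DESeq2 and limma-voom, against 6.7% of all tested genes higher and 4.13% lower by edgeR. Before adjustment (p below 0.05) Ccne1 was the 1 gene higher, and the 4 lower were Gins2, Mcm6, Pola2 and Lig1. Of the 17335 tested genes 2347 were higher and 1972 lower by that rule. Without vehicle 1 Hells passed as higher. The libraries were apart and higher in the knockout for 3 genes, against 16% of tested genes, and apart and lower for 7, against 14.4%.

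Gins2, a subunit of the helicase complex, had the smallest adjusted p in this comparison. Its levels were 84.1, 83.8 and 86.9 CPM in the knockout libraries, against 101, 100.3 and 92.5 CPM in the vehicle libraries. The vehicle libraries lay above the knockout libraries without overlap. The change was -0.21 (SE 0.07, edgeR adjusted p = 0.064), which missed the threshold. For 19 of the 46 genes the 95% interval of the change lay within 1.2-fold in either direction, and the median half-width was 0.20 on the log2 scale. The interval reached furthest for Dscc1, up to 0.55, and for Lig1, down to -0.39.

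**Figure D4:**
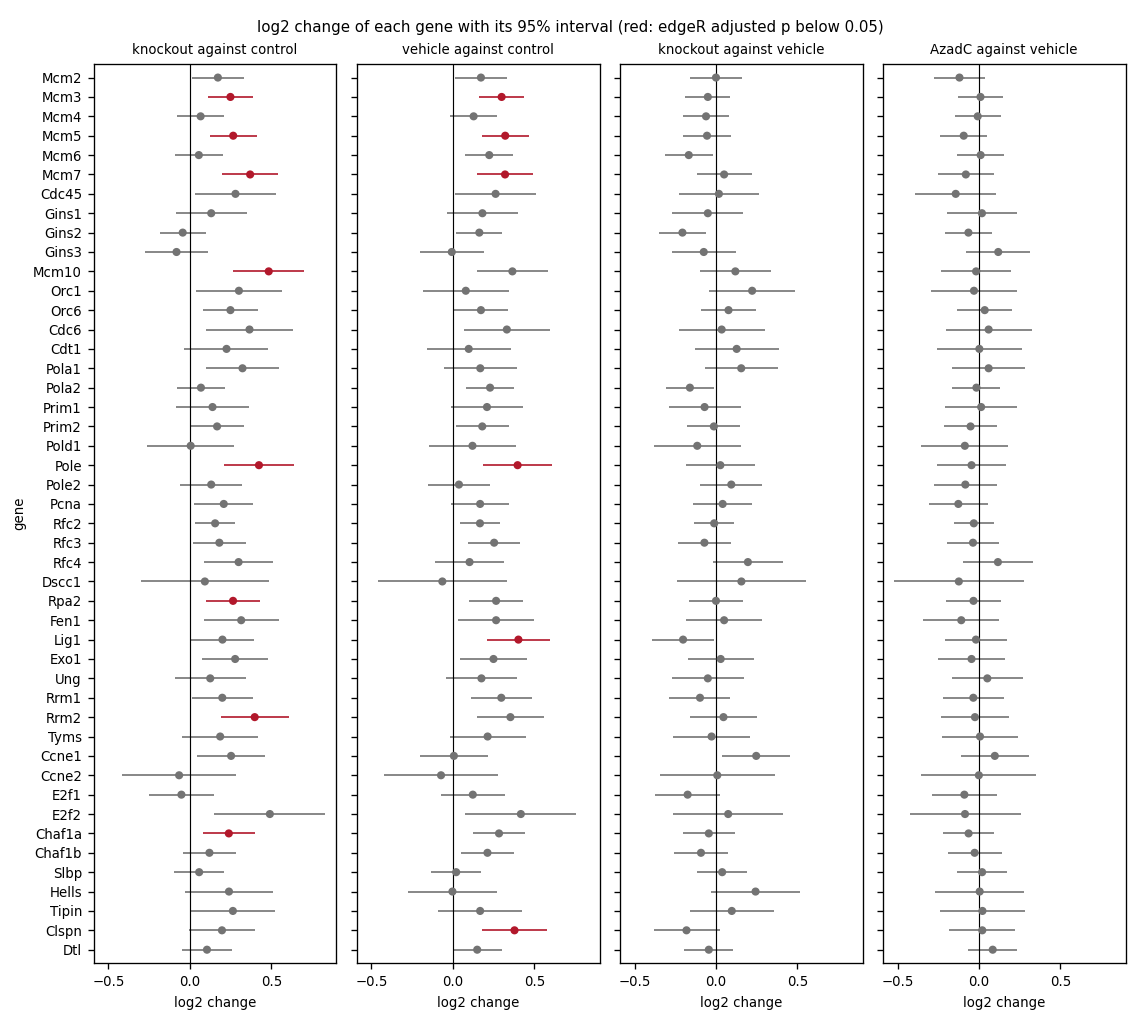
Points are log2 changes of the 46 genes (rows, ordered by role) with 95% intervals from edgeR, in 4 comparisons; red marks adjusted p below 0.05. The points sit mostly right of 0 in the 2 comparisons with control (medians 0.20 and 0.18) and around 0 in the 2 comparisons with vehicle (medians 0.00 and -0.02).

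AzadC against vehicle asked what the drug does relative to its own vehicle. No S-phase gene passed in either direction: 0 were higher and 0 lower by edgeR, DESeq2 and limma-voom, and 0 had an unadjusted p below 0.05. Before adjustment 674 of the 17335 tested genes were higher and 431 lower by edgeR. Over all tested genes 0.00577% were called higher and 0.00577% lower by edgeR and by limma-voom, that is 1 gene in each direction, whereas DESeq2 called 0.528% higher and 0.0503% lower. The median change of the 46 genes was -0.02, with 18 positive, against -0.003 over all tested genes. Leaving out 1 library at a time moved this median between -0.09, without AzadC 2, and 0.05, without AzadC 3, so its sign rested on single libraries. The smallest adjusted p belonged to Mcm2, with 193, 217 and 205 CPM in the AzadC libraries, against 217, 229 and 222 CPM in the vehicle libraries. All AzadC values lay below all vehicle values, by a narrow margin, and the change was -0.12 (SE 0.07, edgeR adjusted p = 0.869). Next came Pcna at -0.13 (adjusted p = 0.886), Mcm5 at -0.09 (adjusted p = 0.899) and Gins3 at 0.12 (adjusted p = 0.906), all by edgeR. The 95% interval lay within 1.2-fold for 27 of the 46 genes and reached down to -0.52 for Dscc1.

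AzadC against control shares its control libraries with the comparisons above. A positive change was found for 43 of 46 genes (median 0.21, against -0.006 over all tested genes). The threshold was passed by 2 genes, Mcm3 at 0.31 (SE 0.06, edgeR adjusted p = 0.0306) and Lig1 at 0.38 (SE 0.09, edgeR adjusted p = 0.0468), and by 0 in the lower direction. Over all tested genes 0.883% were higher and 0.946% lower. Unadjusted, 22 members were higher and 0 lower, beside 1470 higher and 1632 lower of the 17335 tested genes. Clspn, with 0.40 (adjusted p = 0.0514) by edgeR, lay just outside. The count was 0 without any one of AzadC 1, AzadC 2, control 2 and control 3, 1 without control 1 and 4 without AzadC 3. Over all tested genes 44, 16, 58, 90, 152 and 199 were higher in these fits, in that order, against 153 with every library.

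Whether the knockout effect differs from the AzadC effect was tested as the knockout change against control minus the AzadC change against vehicle. This difference was positive for 44 of 46 genes (median 0.22, against 0.004 over all tested genes). It passed for Mcm7 alone, at 0.45 (SE 0.11, edgeR adjusted p = 0.0388), with 0 lower, against 2.2% of tested genes higher and 2.2% lower. Unadjusted, 15 genes were higher and 0 lower, beside 1776 higher and 1736 lower of the 17335 tested genes. Mcm5 followed at 0.36 (adjusted p = 0.0502) and Mcm10 at 0.50 (adjusted p = 0.0634) by edgeR. The same difference is, by arithmetic, knockout minus AzadC plus vehicle minus control, and the medians of these 2 pieces were 0.03 and 0.18. For Mcm7 they were 0.13 and 0.32. With 1 library left out the call was lost in 9 of 12 fits, while 8 genes passed without AzadC 2 and 2 without control 1. Over all tested genes 168 to 292 were higher in the 9 fits, against 382 with every library. Without AzadC 2 and without control 1 they numbered 391 and 439.

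Other genes of the replication machinery were read from lists outside the 46. Of 35 further replication factors 7 rose in knockout against control (Rfc5, Dna2, Dbf4, Rpa1, Recql4, Ssrp1 and Supt16) and 0 fell, with a median of 0.15, beside 7.83% of all tested genes higher and 6.43% lower. Rfc5, a clamp loader subunit, was at 67.7, 76.4 and 74.8 CPM across the knockout libraries, 65.3, 62.7 and 62.7 CPM across AzadC and 65.1, 60.4 and 61 CPM across vehicle, against 57.9, 54.9 and 60.5 CPM across control. The knockout libraries lay above all the others. It changed by 0.34 (SE 0.07, edgeR adjusted p = 0.00468) against control and by 0.23 (SE 0.07, edgeR adjusted p = 0.0411) against vehicle, and was the only 1 of the 35 to pass against vehicle, where 6.7% of all tested genes were higher. The call against vehicle was lost in 8 of 14 alternatives, among them without knockout 2, knockout 3, vehicle 2 or vehicle 3 (adjusted p up to 0.184). In vehicle against control 2 of 35 rose, Ticrr and Timeless, with a median of 0.13, beside 1.46% of all tested genes. Ticrr, which helps the helicase to fire, had 0.48 (adjusted p = 0.0168) there and 0.27 (adjusted p = 0.0698) in the knockout, by edgeR, and missed the threshold in vehicle against control without vehicle 1 or vehicle 3 (adjusted p up to 0.0899). None passed in AzadC against vehicle.

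Some nucleotide supply genes outside the 46 were higher in the knockout than in both control and vehicle. Of 14 such genes, 6 rose in knockout against control (Shmt2, Shmt1, Cad, Dut, Samhd1 and Ctps), 0 rose in vehicle against control, and 3 rose in knockout against vehicle (Shmt2, Shmt1 and Ctps). Over all tested genes 7.83%, 1.46% and 6.7% were higher in these 3 comparisons. Shmt2, the mitochondrial enzyme that takes a carbon unit from serine, was at 122, 118 and 93 CPM across the knockout libraries, 62.6, 67.4 and 72 CPM across AzadC and 63.4, 71.7 and 59.1 CPM across vehicle, against 76.8, 62 and 58.3 CPM across control. All knockout libraries lay above all 9 others, which overlapped among themselves. The change was 0.76 (SE 0.12, edgeR adjusted p = 0.00111) against control and 0.78 (SE 0.12, edgeR adjusted p = 0.00099) against vehicle. Cad, which starts pyrimidine synthesis, had 0.35 (adjusted p = 0.015) against control and 0.26 (adjusted p = 0.0722) against vehicle, by edgeR, and missed the threshold against control without knockout 1 or knockout 2 (adjusted p up to 0.068).

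Of 24 G1/S control genes 4 rose in knockout against control (Rb1, Skp2, Tfdp1 and Mycn) and 0 fell, beside 7.83% of all tested genes higher. In knockout against vehicle 3 rose (Rb1, Tfdp1 and Cdk6) and 1 fell (Tfdp2), beside 6.7% higher and 4.13% lower over all tested genes. Before adjustment 6 were lower there, beside 1972 of the 17335 tested genes. Rb1, the brake that holds E2F factors in check, was at 25.4, 22 and 19.6 CPM across the knockout libraries, 14, 15.5 and 15.1 CPM across AzadC and 13.2, 14.2 and 13.9 CPM across vehicle, against 14.3, 15.2 and 15 CPM across control. The knockout libraries were the highest, and the AzadC libraries overlapped both wild-type groups without the drug. The vehicle libraries lay below the control libraries by a narrow margin, 14.235 against 14.27 CPM at the nearest. That order held for 11.5% of all tested genes. Rb1 changed in the knockout by 0.59 (SE 0.11, edgeR adjusted p = 0.00281) against control and 0.70 (SE 0.11, edgeR adjusted p = 0.00104) against vehicle. Skp2, part of the ligase that removes CDK inhibitors, had 0.24 (adjusted p = 0.00871) against control and 0.08 (adjusted p = 0.385) against vehicle, by edgeR. Cks1b, its cofactor, rose in vehicle against control, at 0.29 (adjusted p = 0.0337) by edgeR, where Myc fell, and Cks1b missed the threshold under the replicate block, in the fit of only the groups compared, and without vehicle 1, vehicle 3, control 2 or control 3 (adjusted p up to 0.14). Of 18 replication checkpoint genes 2 were called higher in knockout against control, Brca1 and Fancd2, a share near the 7.83% of all tested genes, and 0 passed in vehicle against control, AzadC against vehicle or knockout against vehicle.

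The G2/M genes, which act after replication, were also low in the control libraries. Of 34 such genes 23 rose in knockout against control (median 0.31) and 15 in vehicle against control (median 0.31), and 0 fell in either, beside 7.83% and 1.46% of all tested genes higher in these comparisons. In knockout against vehicle 0 passed by edgeR, with 0 at an unadjusted p under 0.05 and a median of -0.01. In AzadC against vehicle 0 passed, with 0 unadjusted. Before adjustment 2347 of the 17335 tested genes were higher and 1972 lower in knockout against vehicle, and 674 and 431 in AzadC against vehicle. Ncapd2, a condensin subunit, was at 491, 505 and 472 CPM across the knockout libraries, 475, 524 and 460.5 CPM across AzadC and 538, 476 and 501 CPM across vehicle, against 373, 368 and 388 CPM across control. The control libraries lay below all the others. It changed by 0.38 (SE 0.07, edgeR adjusted p = 0.00184) in knockout against control and by 0.42 (SE 0.07, edgeR adjusted p = 0.00577) in vehicle against control.

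Uhrf1, which brings Dnmt1 to the fork, was at 307, 285 and 272 CPM across the knockout libraries, 228, 277 and 241 CPM across AzadC and 276, 263 and 257 CPM across vehicle, against 249.9, 214 and 216 CPM across control. Knockout 1 was highest and control 2 lowest. It rose in knockout against control, at 0.35 (SE 0.08, edgeR adjusted p = 0.0134), though not without knockout 1 or control 2 (adjusted p up to 0.0615), and did not pass against vehicle, at 0.12 (SE 0.08, edgeR adjusted p = 0.407). Of the other genes of methylation upkeep at the fork, Cdca7, Cdca7l and Usp7 passed in none of these comparisons.

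Cell type markers moved with the groups as well, and their part in the S-phase values was not tested. The 6 macrophage markers summed to 196 to 219 CPM in the knockout libraries, 80.6 to 91.8 CPM in AzadC and 52.7 to 73.5 CPM in vehicle, against 45.7 to 55.9 CPM in control, with none at 0. Of these 6 markers, 6 rose in knockout against control and 1 in vehicle against control. Over all tested genes 7.83% were higher in knockout against control and 1.46% in vehicle against control. The 8 muscle markers summed to 107 to 677 CPM in the knockout libraries, 24.1 to 111 CPM in AzadC and 25.4 to 264 CPM in vehicle, against 3.94 to 59.7 CPM in control. Of these 8, 6 rose in knockout against control and 0 passed in vehicle against control. Myod1 and Pax7 were at 0 in 1 library at most.

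The 6 cartilage markers went the other way, at 445 to 685 CPM in the knockout libraries, 1135 to 1519 CPM in AzadC and 1494 to 1636 CPM in vehicle, against 981 to 2902 CPM in control. Of 5 tested, 5 fell in knockout against control and 0 passed in vehicle against control, and Matn1 was at 0 in 5 libraries. The 9 palatal and facial mesenchyme markers summed to 1280 to 1690 CPM in knockout, 1374 to 1423 CPM in AzadC and 996 to 1378 CPM in vehicle, against 1708 to 1992 CPM in control. Of these 9, 2 fell in knockout against control and 1 in vehicle against control. Over all tested genes 6.43% were lower in knockout against control and 2.06% in vehicle against control. Of 7 epithelial, 6 red cell and 5 endothelial markers, 0 passed in knockout against control, while 2 epithelial markers fell and 1 red cell marker rose in vehicle against control. Of 4 tested neuronal markers, 1 rose in knockout against control and 1 in vehicle against control, beside 7.83% and 1.46% of all tested genes higher.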

How the data were processed

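RNA-seq of 12 palatal shelf libraries was analysed at gene level. The authors' deposited files hold expected counts per gene and TPM from RSEM, per the file headers. The submitters' processing notes list STAR 2.7.0 and RSEM 1.3.1 beside Trim Galore, FastQC and DESeq2, with build mm10. The strand setting is not given in the sources used here. RSEM splits reads that fit several genes, which leaves counts that are not whole. In some library that was so for 12 of the 46 genes (Mcm7, Gins2, Orc1, Orc6, Pole2, Pcna, Rfc2, Rfc4, Fen1, Ccne2, Chaf1a and Slbp). Orc6 had such a count in 1 library, by 0.01, and Orc1 in 6 libraries, by up to 0.15. Mcm7, Pcna and Chaf1a had them in all 12 libraries. The fraction left over does not measure how many reads were shared.

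Rounded expected counts were fitted with edgeR 4.0.16 in R 4.3.3: filterByExpr by group (17335 genes), TMM (factors 0.985 to 1.01), 1 mean per group over 12 libraries, glmQLFit and glmQLFTest, and Benjamini-Hochberg adjustment over all tested genes (threshold 0.05). The common coefficient of biological variation was 0.152. CPM are TMM-scaled. An SE is the absolute log2 change over the square root of its F statistic. TPM were used only for levels between genes and group order. Groups came from the labels, and replicate numbers were not used to pair libraries. No replicate pair of a group agreed within sampling noise. The edgeR fit was tested on simulated counts with known changes, for knockout against control, AzadC against vehicle and vehicle against control. The other comparisons and methods were not tested in this way.

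Alternatives were RLE and upper-quartile scaling, 2 other filters, DESeq2 1.42.0, limma-voom (limma 3.58.1), a replicate block, a fit of only the groups compared, and leaving out each library. Gene coordinates are from GENCODE M21 (mm10) and promoters from RefSeq (GRCm38.p6). Named with full values were members past the threshold in any comparison other than knockout against vehicle, or the 4 with the smallest adjusted p where none passed, and up to 3 genes per further list. Gins2, outside this rule, was chosen after its values were seen. Mcm6, E2f2 and Cdt1, also outside it, are given with values of single libraries. The 46 genes and the 15 further lists were chosen with earlier results of these data known.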

Additional observations from a re-analysis of the deposited data

Results flagged for a closer look

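The test of the difference between the knockout and AzadC effects called 1 gene of the 46 (2.17%), near the 2.2% of all tested genes called higher. It was Mcm7, a subunit of the replicative helicase, at 0.45 on the log2 scale (SE 0.11, edgeR adjusted p = 0.0388). Its levels were 348, 360.1 and 319 CPM across the knockout libraries, against 277, 254 and 264 CPM in the control libraries, a change of 0.37. In the drug comparison it stood at 294, 354 and 290.3 CPM in the AzadC libraries, against 330.4, 344 and 317 CPM in the vehicle libraries, a change of -0.08 that did not pass (edgeR adjusted p = 0.934). Knockout against vehicle gave 0.05 (edgeR adjusted p = 0.753). By arithmetic the difference of 0.45 is made of 0.13 for knockout minus AzadC and 0.32 for vehicle minus control. Leaving out 1 library at a time gave adjusted p from 0.00605 to 0.107, and the call was lost in 9 of 12 such fits. Over all tested genes 168 to 292 were higher in those 9 fits, against 382 with every library. Mcm7 is among the genes whose counts were not whole in some library.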

How the results depend on the processing

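Direction held under every alternative run for the 40 single-gene changes recomputed: those of the members past the threshold, of the 4 named in AzadC against vehicle and, added after seeing the data, of Gins2 in knockout against vehicle and of changes named for Dnmt1, Uhrf1, Rfc5, Ticrr, Shmt2, Cad, Rb1, Skp2, Cks1b, Ncapd2, Cdkn1a and Cdkn1b, the values of which are given beside them where a call was lost. Of the 8 genes higher in knockout against control, Mcm10 and Mcm7 passed under all alternatives (adjusted p up to 0.0354 and 0.0401). Pole missed the threshold without knockout 2 (largest adjusted p 0.0558), Rrm2 without knockout 2 or control 2 (0.068), and Mcm5 and Mcm3 also without knockout 1 (0.068 and 0.0697). Rpa2 missed it in the fit of only the groups compared and without any of several libraries (up to 0.144), and Chaf1a under the replicate block and without each library in turn (up to 0.152). With no filter the members higher numbered 14 in knockout against control, 10 in vehicle against control, 8 in AzadC against control and 5 for the difference, but the share over all genes was not recorded. With DESeq2 the members higher in these comparisons were 14, 14, 9 and 5. DESeq2 called 7.89%, 3.52%, 3.17% and 4.02% of all genes with an adjusted p higher, in the same order. With limma-voom the count was 1 in AzadC against control and 2 for the difference, beside 0.865% and 3.03% of all tested genes higher. Upper-quartile scaling gave 2 for the difference, and the fit of only the groups compared gave 0 in AzadC against control. The share over all genes was not recorded for either. The fit of only the groups compared was not run for the difference, which uses all groups. Leaving out 1 library gave 2 (without knockout 2) to 11 (without control 1) members higher in knockout against control, with 4 without control 2. It gave 0 to 6 in vehicle against control, with 0 without vehicle 1, vehicle 3, control 2 or control 3. It gave 0 to 4 in AzadC against control, 0 to 8 (without AzadC 2) for the difference, and 0 to 1 (Hells, without vehicle 1) in knockout against vehicle. In the fits with 0 in vehicle against control, the number higher over all tested genes also fell, from 253 to between 46 and 123. In knockout against control 41 to 44 of 46 changes stayed positive, with a median of 0.17 to 0.23. No alternative called a member lower. With the replicate number as a block the counts higher were 8 (7 shared) in knockout against control, 4 in vehicle against control, 2 in AzadC against control and 1 for the difference. For the block too the share over all genes was not recorded. Numbers were not taken as pairs. For each gene the group mean was taken from the log2 CPM, and what remained was correlated between same-numbered libraries. The r values were 0.081 to 0.277 in knockout against control, -0.097 to 0.028 in AzadC against vehicle and 0.039 to 0.136 in vehicle against control. By this measure all 6 libraries of knockout against control correlated best with their own number, a hint from the data and not from the design. In vehicle against control 4 of 6 did, and in AzadC against vehicle 1 of 6. A pair of unlike number, AzadC 3 and vehicle 2, reached 0.149. Intervals with a median half-width of about 0.20 on the log2 scale in knockout against vehicle limit what 3 libraries a group can show.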

Other observations

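The CDK inhibitors hold cells out of S phase. Of 7 such genes, 6 passed the filter on low counts (Cdkn2a did not), and 1, Cdkn1a, rose in knockout against control and 0 fell. Over all tested genes 7.83% were higher and 6.43% lower in that comparison, and 6.7% were higher in knockout against vehicle. Cdkn1a, a p53 target that blocks cyclin-dependent kinases and also binds Pcna, was at 35.7, 29.3 and 15.7 CPM across the knockout libraries, 9.93, 7.93 and 11.8 CPM across AzadC and 7.80, 17.3 and 6.78 CPM across vehicle, against 10.8, 6.09 and 5.48 CPM across control. Knockout 1 and knockout 2 lay above all others, whereas knockout 3 lay below vehicle 2. It changed by 1.84 (SE 0.38, edgeR adjusted p = 0.00605) against control and by 1.33 (SE 0.37, edgeR adjusted p = 0.0365) against vehicle, where the call was lost in the fit of only the groups compared and without knockout 1, knockout 2, vehicle 1 or vehicle 3 (adjusted p up to 0.147). Cdkn1b was at 45.6, 48.8 and 50.7 CPM across the knockout libraries, against 57, 48.3 and 59.4 CPM in the control libraries, a change of -0.18 (SE 0.09, edgeR adjusted p = 0.208) that did not pass.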
